A study of Gallus gallus with 2 samples.

Results

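Cadherins and protocadherins were the 33 genes, measured by 79 of 38382 probe sets, whose single annotated symbol is CDH or PCDH followed by a number or by a cluster letter, with CDH5 left out. They were read on 2 GeneChip Chicken Genome arrays, 1 of heart forming regions (HFR) and 1 of posterior primitive streak (PPP). The HFR array held RNA from pieces showing EGFP and the PPP array RNA from the posterior streak, both excised at stage HH4 to HH4+ by one label and at HH4-5 by another. All embryos of both groups carried the plasmid pCer2.5-EGFP, electroporated at HH3, in which 2.5 kb upstream of Cerberus drives EGFP. Incubation of both groups lasted about 12 h at 37.5 °C. Each array took 45 ng of total RNA, amplified in a pair of rounds. How many embryos went into each array is not stated in the labels, and no array of embryos without the plasmid was analysed here. With 1 array per tissue no difference below has a replicate check, and every error is a model error over the probes of 1 probe set.

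Cadherins are calcium-dependent membrane proteins that hold cells of the same kind together. Classical cadherins bind catenins inside the cell and through them the actin cytoskeleton. CDH1 (E-cadherin, L-CAM in chick) is the cadherin of epithelia such as the epiblast, and CDH2 (N-cadherin) and CDH11 are typical of mesenchyme. Cells that leave the epiblast through the primitive streak are known to lose CDH1 and to gain CDH2, a change called the cadherin switch. Protocadherins lack the catenin-binding tail and are best known from the nervous system and from the sorting of mesoderm in frog and fish. The arrays were compared for how the epithelial and the mesenchymal members divide between heart forming regions and posterior streak.

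The values are model-based expression indices (MBEI), linear intensities of a probe set, each with a detection call of present, marginal or absent. Probe sets differ in brightness for the same amount of RNA, so a level in MBEI is not read as one gene having more RNA than another, and a sum over markers weights each gene by the brightness of its probe set. Differences are log2 values, HFR minus PPP. A gene passed the level filter where the brighter of its values carried a present call and was no lower than 70.8 MBEI, and a difference was counted at 2-fold. The HFR array gave a present call to 38.4% of all probe sets, the PPP array to 42.2%.

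The labels themselves were checked against known genes. CER1, whose upstream fragment drove the EGFP, read 108.3 ± 19.2 MBEI (marginal) on the HFR array and 420.2 ± 193.3 MBEI on the PPP array. TBXT, 1 marker of the streak, read 7128.6 ± 80.7 and 3691.4 ± 147.1 MBEI on the same arrays. Both lay opposite to the labels. Of 6 heart field markers (NKX2-5, ISL1, HAND2, TBX5, MYOCD, GATA4), 0 had a present call for HFR and 5 for PPP. The 6 primitive streak markers were mixed, with 4 and 5 called present. Of the 5 that passed 4 lay above 0, among them WNT3A (6.32-fold) and MSGN1 (1.76-fold) besides TBXT, while FGF8 went with the labels, at least 4.54-fold higher for PPP. FGF8 was absent on the HFR array. Like CER1 and the 4 heart field markers that passed, it passed by the PPP value alone. The arrays are therefore named HFR-labelled and PPP-labelled, and each direction holds between arrays so labelled. The 33 poly-A spike-in probe sets present on both arrays had a median log2 difference of -1.44, and 33 of 33 were lower on the HFR-labelled array. Setting them equal would move every log2 difference upward by that amount, so directions below are relative to the other genes of the arrays. The log2 differences of NKX2-5 (0.57), ISL1 (0.01) and HAND2 (0.34) then turned, while MYOCD lay at -0.43 and FGF8 at -0.74.

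Few of the 79 probe sets were detected. On the HFR-labelled array 15 (19.0%) were called present and on the PPP-labelled array 16 (20.3%), against 38.4% and 42.2% of all probe sets. Absent on both were 52 (65.8%), against 52.4% of all probe sets. Of the 33 genes 9 passed the level filter, beside 7389 of all 13009 genes. Of the 9, 8 were called present on both arrays. CDH4 passed by the HFR-labelled value alone, and CDH20 met the level by the PPP-labelled value alone. CDH1 and CDH3 were higher by 2-fold or beyond on the HFR-labelled array. CDH11, CDH20 and PCDH17 were higher by 2-fold or beyond on the PPP-labelled array, where with the spike-ins set equal CDH11 and CDH20 lay under 2-fold and PCDH17 turned. The remaining 4, CDH2, CDH4, PCDH1 and PCDHGA2, differed by less, though CDH4 and PCDH1 lay past 2-fold toward HFR-labelled with the spike-ins set equal. Of all 7389 genes past the filter 3.86% reached 2-fold toward HFR-labelled and 4.25% toward PPP-labelled. Of the 9 cadherin genes 2 and 3 did. At 4-fold, CDH1 alone remained on the HFR-labelled side and CDH11 alone on the PPP-labelled side, with 0.988% and 0.595% of all passing genes. At 1.5-fold, 3 and 5 of the 9 were counted, with 9.43% and 13.0% of all passing genes. The log2 differences of the 9 had a median of -0.61 and an SD across genes of 1.69, beside -0.05 and 0.63 over all passing genes.

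**Figure D1:**
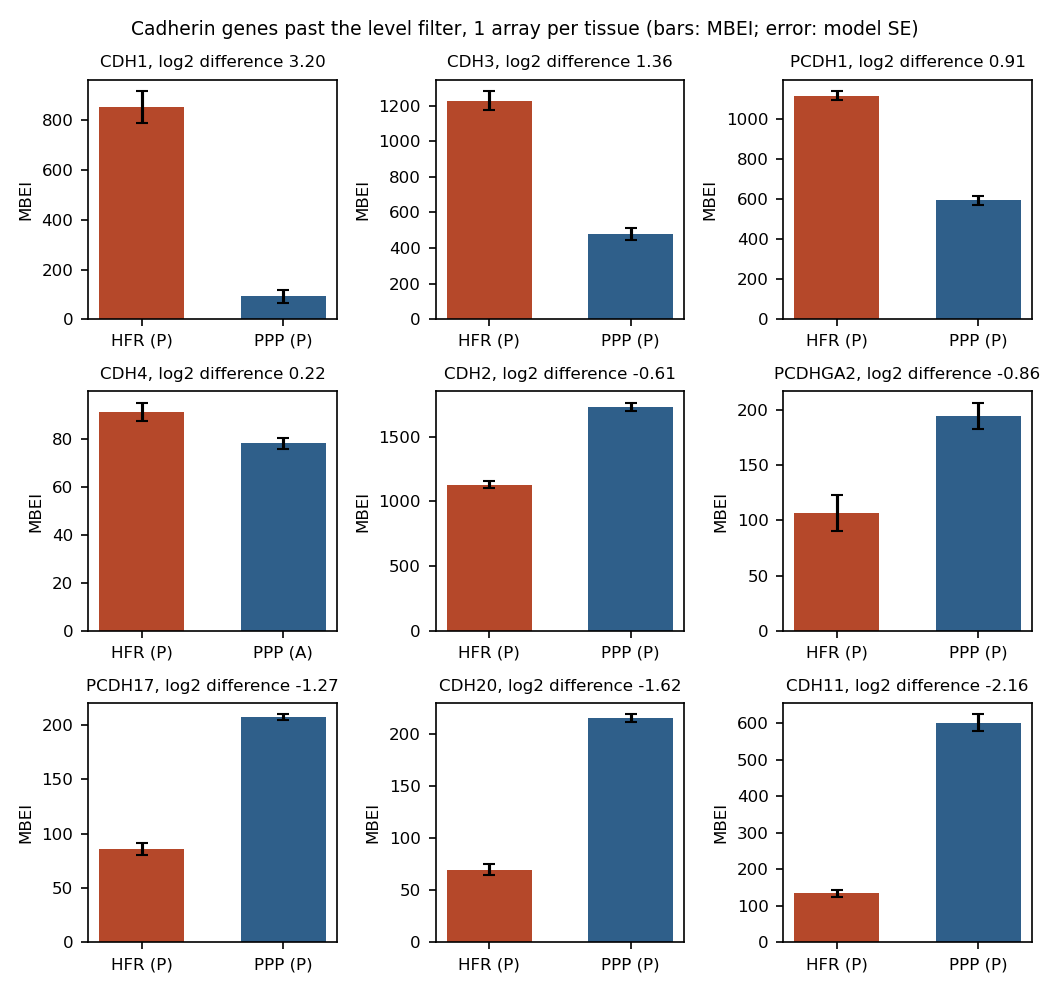
MBEI (linear axis from 0, one per panel) of the 9 cadherin and protocadherin genes past the level filter, HFR-labelled array left and PPP-labelled array right, with the detection call (P present, A absent) and the model standard error as error bar. CDH1, CDH3, PCDH1 and CDH4 were higher on the HFR-labelled array and CDH2, PCDHGA2, PCDH17, CDH20 and CDH11 on the PPP-labelled array, of which CDH2, PCDHGA2 and PCDH17 turn if the poly-A spike-ins are set equal.

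The epithelial cadherins lay together on the HFR-labelled side. CDH1 read 850.4 ± 64.3 MBEI on the HFR-labelled array and 92.4 ± 27.0 MBEI on the PPP-labelled array, and was called present on both. That is 9.20-fold higher, with a log2 difference of 3.20 and a standard error of 0.44. The error is wide because the PPP-labelled value carried a model error of 29.2%, and CDH1 has 1 probe set, so no other probe set bears on it. Of all passing genes 0.271% had a log2 difference as high or higher.

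CDH3, the P-cadherin of many epithelia, listed in RefSeq with the synonym K-CAM, read 1227.6 ± 51.8 MBEI on the HFR-labelled array and 478.4 ± 32.6 MBEI on the PPP-labelled array. It was 2.57-fold higher, with a log2 difference of 1.36 and a standard error of 0.12, and 2.15% of all passing genes lay as high or higher. Its other probe set was dim and lay the opposite way, at 52.5 ± 3.7 and 63.8 ± 7.9 MBEI, a log2 difference of -0.28 (standard error 0.21). That probe set was called present on both arrays but lay under the level filter. The CDH3 call therefore rests on 1 probe set, whose ID suffix marks it as matching several transcripts of the gene.

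Epithelium markers lay on the same side as CDH1 and CDH3. Of all passing genes 3.86% reached 2-fold toward HFR-labelled. Of 5 epithelium markers on the array 3 passed and all 3 were higher by 2-fold or beyond on the HFR-labelled array. These were the tight junction proteins CLDN1 (8.02-fold) and CLDN3 (2.80-fold) and the adhesion molecule EPCAM (2.88-fold), while CLDN4 and OCLN were absent on both. The 5 summed to 12205.1 MBEI on the HFR-labelled array and 2938.9 MBEI on the PPP-labelled array. Of 7 extraembryonic endoderm markers, 5 passed and 5 were higher by 2-fold or beyond on the HFR-labelled array (APOA1, HNF4A, RBP4A, SPP1, TTR), with AFP and APOB absent on both. On the PPP-labelled array HNF4A and SPP1 were absent and TTR was marginal. These passed by the HFR-labelled value alone, so their differences are lower bounds. The HFR-labelled values of TTR and RBP4A carried model errors of 37.5% and 22.1%. The 7 markers summed to 8353.5 and 643.1 MBEI. The part of these cells in the CDH1 and CDH3 values was not tested. In tissue pieces, more cells of a type and more RNA per cell cannot be told apart.

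Of 4 cadherins listed as mesenchymal 2 passed, CDH11 and CDH2, both below 0 with CDH11 alone past 2-fold, and CDH2 turned with the spike-ins set equal. CDH11, a type II cadherin of loose mesenchyme, read 134.3 ± 10.5 MBEI on the HFR-labelled array and 602.1 ± 22.6 MBEI on the PPP-labelled array, 4.48-fold higher for PPP-labelled RNA. The log2 difference was -2.16 (standard error 0.13), and 0.433% of all passing genes lay as low or lower. With the poly-A spike-ins set equal it was -0.72. Its other probe set was absent on both arrays, at 284.7 ± 16.0 and 220.2 ± 8.5 MBEI, and so does not bear on the direction.

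CDH2 differed less. Its brighter probe set read 1128.5 ± 26.8 MBEI on the HFR-labelled array and 1727.9 ± 32.3 MBEI on the PPP-labelled array, 1.53-fold higher for PPP-labelled RNA, with a log2 difference of -0.61 and a standard error of 0.04. Its dimmer probe set read 91.2 ± 8.4 and 134.8 ± 4.3 MBEI, a log2 difference of -0.56. CDH2 was the only one of the 9 genes with more than 1 passing probe set, and both lay the same way. With the spike-ins set equal CDH2 turned to 0.83. CDH6 and CDH7, cadherins of chick neural crest that were listed as mesenchymal, were absent on both arrays, CDH6 at 28.3 ± 4.2 and 35.1 ± 4.1 MBEI and CDH7 at 35.9 ± 1.8 and 40.6 ± 2.6 MBEI.

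Mesenchyme markers divided in the same comparison. Of all passing genes 4.25% reached 2-fold toward PPP-labelled, and their median log2 difference was -0.05. Of 9 mesenchyme markers on the array 8 passed, 6 lay below 0 and 2 above. Higher by 2-fold or beyond on the PPP-labelled array were 3, TWIST1 (at least 16.4-fold), COL5A2 (6.09-fold) and COL1A2 (3.66-fold). TWIST1 was absent on the HFR-labelled array and passed by the PPP-labelled value alone. COL5A2 and PDGFRA read 61.3 and 58.7 MBEI on the HFR-labelled array, under the level filter, and met it by the PPP-labelled value alone. VIM, counted below 0, had a log2 difference of -0.07 (standard error 0.11). Fibronectin, FN1, had a log2 difference of 0.78. With the spike-ins set equal VIM, PDGFRA and COL1A1 turned, and TWIST1 lay at -2.59, COL5A2 at -1.16 and COL1A2 at -0.43. COL3A1 was absent on both arrays. The 9 summed to 5318.8 MBEI on the HFR-labelled array and 6062.0 MBEI on the PPP-labelled array. Of 7 blood and endothelial markers 5 passed and 5 lay below 0, with sums of 1960.1 and 4195.3 MBEI and LMO2 absent on both. Of the 5, CDH5 and FLT1 were absent on the HFR-labelled array. They passed by the PPP-labelled value alone, so their differences are bounds. TAL1 read 60.9 MBEI on the HFR-labelled array, under the level filter, and met it by the PPP-labelled value alone. That PPP-labelled value carried a model error of 27.3%. KDR and FLI1 turned with the spike-ins set equal. Of 6 neural plate markers 2 passed and lay on opposite sides, SOX3 with a log2 difference of 2.62 and OTX2 with -0.88, which turned to 0.56 with the spike-ins set equal. The 6 summed to 1480.4 and 871.1 MBEI, and NCAM1, SIX3 and SOX2 were absent on both. The part of these cells in the CDH11 and CDH2 values was not tested.

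In a difference between members a common factor of an array cancels, but a scaling that varies with intensity does not. The log2 difference of CDH1 exceeded that of CDH2 by 3.82 (standard error 0.44), and that of CDH3 exceeded that of CDH2 by 1.97 (standard error 0.12). Under quantile normalization these were 3.82 and 2.01, and with a pseudocount of 32 MBEI 3.43 and 1.90. The excess of CDH3 was 0.28 with s, x and a probe sets left out, where its dim probe set stood for it. Set against CDH11, the excess was 5.37 ± 0.45 for CDH1 and 3.52 ± 0.17 for CDH3. CDH1 itself exceeded CDH3 by 1.84 ± 0.45, and CDH2 exceeded CDH11 by 1.55 ± 0.13. With the probe sets given, these gaps were several times the model errors, which hold no biological spread. They give the order CDH1, CDH3, CDH2, CDH11, from the HFR-labelled toward the PPP-labelled side, for the probe sets that stand for these genes, and the place of CDH3 rests on its brighter probe set.

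**Figure D2:**
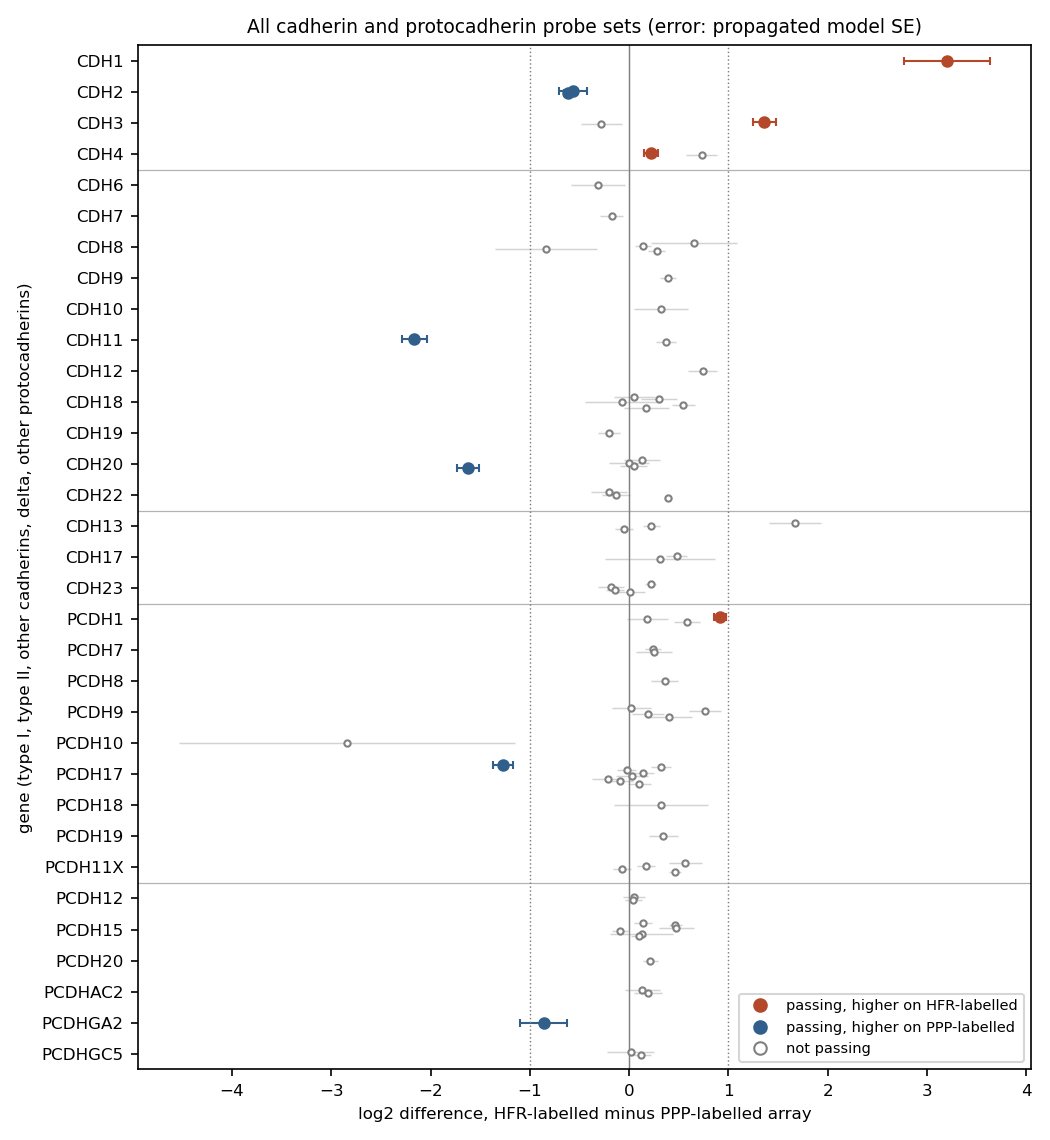
Log2 difference (HFR-labelled minus PPP-labelled) of each of the 79 probe sets, by gene and subfamily from top to bottom, with the propagated model standard error. Filled points passed the level filter and open points did not, dotted lines mark 2-fold, and most open points lie near 0, the open points beyond 2-fold being 1 of CDH13 and 1 of PCDH10. CDH3, CDH11, CDH20 and PCDH17 each have 1 filled point beyond 2-fold and the rest open, and PCDH17, CDH2 and PCDHGA2 turn if the poly-A spike-ins are set equal.

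CDH4 (R-cadherin, named for the retina) completes the type I cadherins that passed. It read 91.4 ± 3.8 MBEI on the HFR-labelled array and 78.3 ± 2.2 MBEI (absent) on the PPP-labelled array, a fold of at least 1.17. The other CDH4 probe set was absent on both arrays, at 84.1 ± 2.9 and 50.7 ± 5.3 MBEI, a log2 difference of 0.73. Of member probe sets with a present call on their brighter array, that of CDH4 lay nearest above the minimum of 70.8 MBEI, and one of PCDH9, at 67.5 MBEI, nearest below it. So of 4 type I cadherins on the array 4 passed, 3 above 0 and 1 below, with 2 at 2-fold toward HFR-labelled and 0 toward PPP-labelled.

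Of 11 type II cadherins on the array 2 passed, and both were higher by 2-fold or beyond on the PPP-labelled array. Besides CDH11 this was CDH20, known in chick as MN-cadherin for its place in motor neurons. CDH20 read 70.0 ± 5.3 MBEI on the HFR-labelled array and 215.6 ± 3.6 MBEI on the PPP-labelled array, 3.08-fold higher for PPP-labelled RNA. Its HFR-labelled value lay under the minimum of 70.8 MBEI, so CDH20 met the level by the PPP-labelled value alone. The log2 difference was -1.62 (standard error 0.11), and -0.18 with the spike-ins set equal. The 3 other CDH20 probe sets were absent on both arrays and spanned log2 differences of 0.00 to 0.13. The 9 type II genes that did not pass (CDH6, CDH7, CDH8, CDH9, CDH10, CDH12, CDH18, CDH19, CDH22) had no present call on the probe sets that stood for them.

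Among the delta protocadherins 2 of 9 passed, and they lay on opposite sides. PCDH1, a protocadherin found at epithelial cell contacts in mammals, read 1116.6 ± 21.3 MBEI on the HFR-labelled array and 593.7 ± 22.2 MBEI on the PPP-labelled array, 1.88-fold higher. Its log2 difference of 0.91 had a standard error of 0.06 and did not reach 2-fold, but was 2.35 with the spike-ins set equal. Its other 2 probe sets did not pass, with log2 differences of 0.18 and 0.58.

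PCDH17, studied mostly in brain circuits, read 85.8 ± 5.6 MBEI on the HFR-labelled array and 207.0 ± 2.7 MBEI on the PPP-labelled array, 2.41-fold higher for PPP-labelled RNA. The log2 difference was -1.27 (standard error 0.10), and it turned to 0.17 with the spike-ins set equal. PCDH17 had the most probe sets, 8, and the other 7 did not pass and spanned log2 differences from -0.21 to 0.32. PCDH8, the paraxial protocadherin of frog and fish mesoderm, was absent on both arrays, as were PCDH7, PCDH10, PCDH11X, PCDH18 and PCDH19.

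Of the clustered protocadherins, which give neurons their surface identity in mammals, PCDHGA2 passed. It read 106.9 ± 16.4 MBEI on the HFR-labelled array and 194.4 ± 11.9 MBEI on the PPP-labelled array, 1.82-fold higher for PPP-labelled RNA, and turned with the spike-ins set equal. PCDHGC5 read 137.0 ± 17.8 MBEI (marginal) and 135.7 ± 13.6 MBEI (present), a log2 difference of 0.01 (standard error 0.24), and missed the filter because its brighter array was marginal. Cluster members are alike in sequence, so a probe set named for 1 of them can take up RNA of others, and 2 probe sets listed for several PCDHAC genes were left out.

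**Figure D3:**
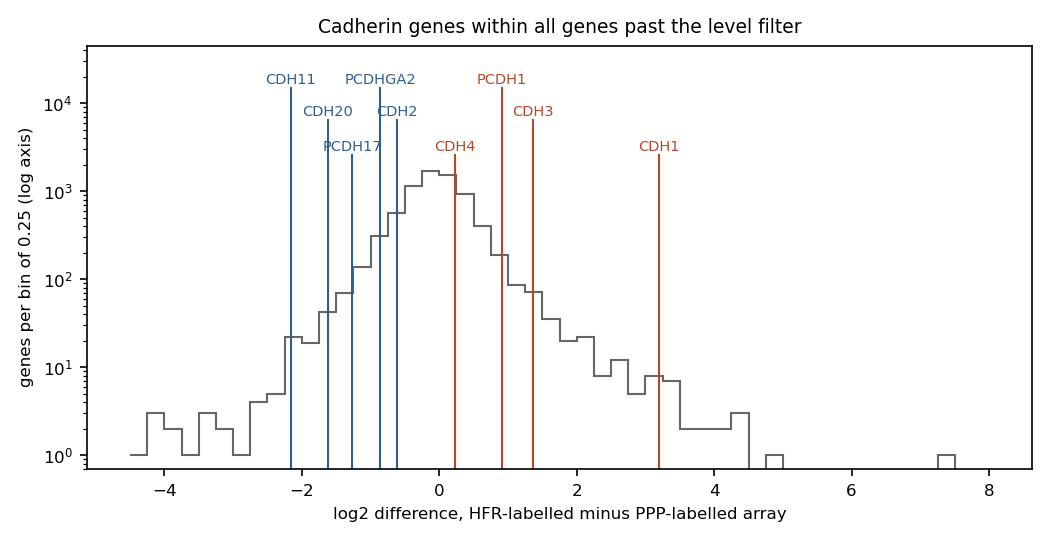
Log2 differences (HFR-labelled minus PPP-labelled) of all 7389 genes past the level filter as an outline of genes per bin on a log axis, with the 9 cadherin and protocadherin genes as vertical lines. CDH1 lies far to the right at 3.20 and CDH11 far to the left at -2.16, while CDH4 and CDH2 lie within the bulk of the genes. With the poly-A spike-ins set equal all lines and the outline would shift right together, and CDH2, PCDHGA2 and PCDH17 would turn.

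The 24 genes that did not pass gave few readable differences, and those among them given with values (CDH6, CDH7, CDH13, PCDH9, PCDH10, PCDHGC5) were chosen after their values were seen. In 21 of them the probe set that stood for the gene had no present call. Without PCDH10, their MBEI lay between 23.0 and 263.2 and their log2 differences between -0.31 and 0.76. PCDH10 read 0.6 ± 0.7 and 4.3 ± 0.6 MBEI, absent on both, and no fold is given. Without a present call a difference was not detectable, which does not show that the genes were silent. Of the 52 probe sets absent on both arrays, 38 (73.1%) had a log2 difference above 0, beside 68.6% of all 20131 such probe sets. The median was 0.17 over the 52 and 0.13 over the 20131, so dim probe sets as a whole lay slightly toward the HFR-labelled array. A dim probe set of CDH13 (T-cadherin, anchored by a lipid) was called present on the HFR-labelled array at 28.4 ± 0.9 MBEI and absent on the PPP-labelled array at 8.9 ± 1.6 MBEI, at least 3.19-fold higher. The 2 other CDH13 probe sets had log2 differences of -0.05 and 0.22 and no present call.

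Gene order came from a RefSeq table (GRCg7b). CDH3 and CDH1 are neighbours there, with 0 protein-coding genes between them, and both were higher by 2-fold or beyond on the HFR-labelled array. CDH11 lies next to CDH5 on the same chromosome, also with 0 between. CDH5, the endothelial cadherin left out of the 33 genes, read 18.5 ± 5.4 MBEI (absent) on the HFR-labelled array and 290.8 ± 11.8 MBEI on the PPP-labelled array. CDH8, the neighbour on the other side of CDH11, had no present call. PCDH9, PCDH20, PCDH17 and PCDH8 form a run with at most 2 protein-coding genes between neighbours, and of these PCDH17 alone passed. PCDHGA2 and PCDH1 also lie on the same chromosome, with 1 protein-coding gene between PCDHGA2 and PCDHGC5 and 6 between PCDHGC5 and PCDH1. Their log2 differences were opposite, at -0.86 and 0.91, and that of PCDHGA2 turned with the spike-ins set equal.

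Catenins link cadherins to actin, and those that passed differed by less than 2-fold with the values as deposited. Of 17 catenins and junction partners on the array 14 passed, 9 above and 5 below 0, with 1 at 2-fold toward HFR-labelled and 0 toward PPP-labelled. Of all passing genes 3.86% and 4.25% reached 2-fold toward these sides. The median log2 difference of the 14, which include genes other than catenins, was 0.09, beside -0.05 over all passing genes. The 1 past 2-fold was PLEKHA7, which ties microtubules to adherens junctions. It read 609.0 ± 11.4 MBEI on the HFR-labelled array and 62.8 ± 3.2 MBEI on the PPP-labelled array, 9.70-fold higher. PLEKHA7 met the level filter by the HFR-labelled value alone. Its 5 other probe sets had no present call and log2 differences of 0.12 to 1.04. Next in size came the neural alpha-catenin CTNNA2 (-0.85), the beta-catenin inhibitor CTNNBIP1 (-0.74), plakoglobin JUP (0.59) and the p120 relative ARVCF (0.59), given as log2 differences, of which CTNNA2 and CTNNBIP1, like all 5 below 0, turned with the spike-ins set equal. The core catenins CTNNB1 (0.19), CTNND1 (0.10) and CTNNA1 (0.14) had log2 differences far under 2-fold, and were picked once their values were known. With the spike-ins set equal they lay at 1.63, 1.54 and 1.58, past 2-fold, as did 5970 of all 7389 genes toward HFR-labelled. Beta-catenin CTNNB1 itself read 5417.2 ± 190.6 and 4753.6 ± 120.3 MBEI.

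Desmosomes, the junctions that tie cadherins to keratin, were thinly covered, with 3 of 7 genes passing. Desmoplakin DSP read 197.6 ± 8.7 MBEI on the HFR-labelled array and 96.2 ± 3.1 MBEI on the PPP-labelled array, 2.05-fold higher, and its other 2 passing probe sets had log2 differences of 0.78 and 0.71. The plakophilins PKP2 and PKP4 had log2 differences of 0.23 and -0.11, and PKP4 turned with the spike-ins set equal. The list's median was 0.23. Of all passing genes 3.86% reached 2-fold toward HFR-labelled and 4.25% toward PPP-labelled. Of 16 other cadherin superfamily genes 5 passed and 0 reached 2-fold in either direction, with a median of 0.45. Largest in size were the log2 differences of CELSR1 (at least 0.56), FAT1 (0.48), CLSTN1 (0.45) and CELSR3 (at least 0.05), where the planar polarity cadherins CELSR1 and CELSR3 were absent on the PPP-labelled array.

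Repressors known to act on CDH1 in mammals were read as well. Of 8 repressors on the array 8 passed, with 0 at 2-fold toward HFR-labelled and 3 toward PPP-labelled, and a median of -0.34. Of all passing genes 3.86% and 4.25% reached 2-fold toward these sides. ZEB2, a zinc finger repressor of CDH1, read 96.4 ± 8.7 MBEI on the HFR-labelled array and 383.3 ± 8.9 MBEI on the PPP-labelled array, 3.98-fold higher for PPP-labelled RNA, while its 4 other probe sets did not pass, with log2 differences from -0.39 to 0.52. TWIST1, a bHLH factor of mesenchyme, read 36.7 ± 6.9 MBEI (absent) and 600.5 ± 44.3 MBEI on the same arrays. It passed by the PPP-labelled value alone, and it was counted above among the mesenchyme markers, as was SNAI2. GSC, a homeobox repressor of the organizer, was 3.00-fold higher for PPP-labelled RNA, and ZEB1 had a log2 difference of -0.62. The repressors SNAI2 and SNAI1, which act in the chick streak and neural crest, had log2 differences of 0.30 and 0.12. SNAI2 read 1312.8 ± 20.7 and 1068.4 ± 24.2 MBEI. The other SNAI1 probe set did not pass and lay the opposite way, at -0.16. ZEB1, TCF3 and TCF4 turned with the spike-ins set equal, while TWIST1 was at -2.59, ZEB2 at -0.55 and GSC at -0.14. Of these 3, TWIST1 alone then stayed past 2-fold. With 1 array per tissue no relation between a repressor and CDH1 was tested.

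Among proteins that cut or modify cadherins, 9 of 11 passed, with 0 at 2-fold toward HFR-labelled and 4 toward PPP-labelled, and a median of 0.02. The shares of all passing genes were 3.86% and 4.25%. The 4 were the proprotein convertase PCSK5 (10.8-fold), the gelatinase MMP2 (at least 9.37-fold) and TMTC4 (2.16-fold) and TMTC2 (2.13-fold), which attach mannose to cadherins in human cells. The other passing PCSK5 probe sets were at least 4.37-fold to at least 5.57-fold higher for PPP-labelled RNA. Another, under the filter, was at least 3.21-fold higher. The rest of PCSK5 were absent on both arrays, with log2 differences from 0.03 to 0.60. MMP2 was absent on the HFR-labelled array at 14.5 ± 3.6 MBEI and passed by the PPP-labelled value alone. TMTC2 read 66.2 MBEI on the HFR-labelled array and met the level filter by the PPP-labelled value alone. With the spike-ins set equal both TMTC genes turned, while PCSK5 was at a log2 difference of -1.99 and MMP2 at -1.78. Of the other TMTC2 probe sets 1 passed, with a log2 difference of -1.27, and 1 lay under the filter the opposite way, at 0.22. The 2 other probe sets of TMTC4 did not pass, at 0.02 and -0.05. ADAM10, the protease that sheds the outer part of CDH1, had a log2 difference of 0.02 and was chosen after its value was seen.

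**Figure D4:**
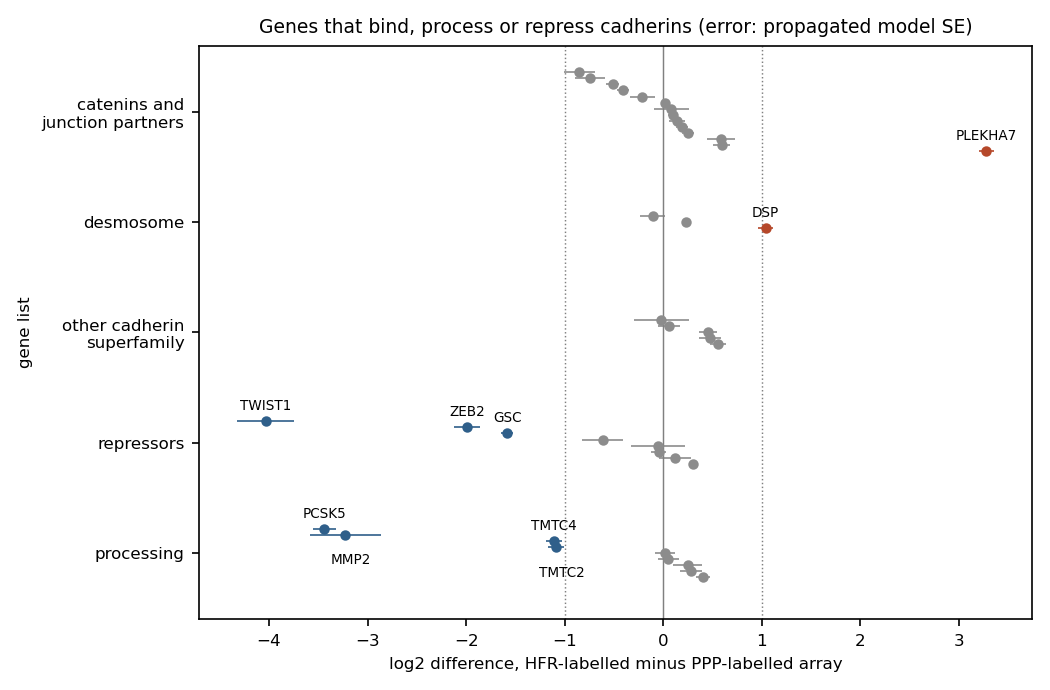
Log2 differences (HFR-labelled minus PPP-labelled) of the passing genes of 5 lists of cadherin partners, with the propagated model standard error, dotted lines at 2-fold, and names for genes at 2-fold or more. PLEKHA7 and DSP lie on the HFR-labelled side and TWIST1, ZEB2, GSC, PCSK5, MMP2, TMTC4 and TMTC2 on the PPP-labelled side, of which TMTC4 and TMTC2 turn if the poly-A spike-ins are set equal.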

How the data were processed

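The values are intensities that the authors deposited as MBEI, per the series' design text normalized to a baseline array with an invariant set and modelled on perfect match probes of 6 arrays, 4 of them from another study. Their 12 columns stayed out. The submitters' processing notes list GCOS 1.3. Detection calls and standard errors are other columns of the deposited table, per the file headers. On both arrays all 38535 of 38535 probe sets had the same MBEI in the series' value table. Symbols came from the platform annotation, updated by gene ID with a RefSeq table (GRCg7b), which held 33 of 33 member genes.

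After 153 control and reporter probe sets were left out, each of 13009 genes was represented by the single-symbol probe set of highest mean log2 MBEI, and 7389 passed the level filter, a present call on the brighter array at or above the median brighter value. Where only the dimmer array lacked a present call, the fold is a lower bound. The bound takes the dimmer value as read, or the lowest present value of that array if higher. It allows for neither the model error nor another scaling of the arrays. Errors were propagated from both arrays. Named were every passing member, CDH1, CDH2, CDH3 and CDH11, the partner genes at 2-fold, and up to 4 others of each list. Members and lists were chosen with earlier results of these data known. With 1 array per tissue no test or p-value was possible, and precision is limited by the number of arrays. Computation used Python 3.11.15, numpy 2.4.6 and pandas 2.3.3. The procedure was tested on simulated data. Alternatives were 3 other scalings, a pseudocount of 32 MBEI, 3 filters, 3 choices of probe set, thresholds of 1.5-fold and 4-fold, and the series' value table. Sequences were not used here.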

Additional observations from a re-analysis of the deposited data

How the results depend on the processing

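No paired analysis was possible because each tissue has 1 array, which also means that no replicate could be left out. With the poly-A spike-ins set equal, 4 members were counted at 2-fold toward HFR-labelled and 0 toward PPP-labelled, as were 5970 and 17 of all 7389 genes (285 and 314 as given), the median log2 difference of the passing members was 0.83 in place of -0.61, and that of PCDH17 was 0.17 in place of -1.27. The median was 0.22 without the level filter, -0.20 with the present call alone and -0.74 with the filter at the 75th percentile. Which genes are let in changes it by construction. With s, x and a probe sets left out, 1 member was counted at 2-fold toward HFR-labelled, CDH3 had -0.28 in place of 1.36, and its excess over CDH2 was 0.28 in place of 1.97. At 1.5-fold the counts were 3 and 5, and at 4-fold 1 and 1. With the pseudocount of 32 MBEI, 217 and 199 of all genes reached 2-fold. CDH1, CDH3, CDH11, CDH20 and PCDH17 were counted at 2-fold in the same direction under median centring, quantile normalization, a pseudocount of 32 MBEI, each filter, both other choices of probe set and the series' value table. The pseudocount moved CDH11 to -1.93, CDH20 to -1.28 and PCDH17 to -1.02, where PCDH17 passed 2-fold by less than its model error of 0.10. The level filters and the value table leave the value of a single gene as it is by construction, so they do not bear on its stability. CDH1, CDH3, CDH11, CDH20 and PCDH17 each have 1 passing probe set. Both other choices of probe set therefore also leave their values as they are and do not bear on their stability. CDH2 and PCDHGA2 also changed sign with the spike-ins set equal, to 0.83 and 0.58. Among the limits are that 24 of 33 genes did not pass and that there is 1 array per tissue. A further limit is that several known genes, CER1 and TBXT among them, lay opposite to the labels. FGF8, which like CER1 passed by the PPP-labelled value alone, went with the labels.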
